A study of Mus musculus with 6 samples.

Results

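A group of 5 transporter genes of the kidney's proximal tubule, of the 9519 genes that could be read, is described here in 6 RNA sequencing libraries of mouse kidney. The genes are Slc34a1 (phosphate), Slc13a1 (sulphate), Slc22a8 and Slc22a13 (organic anions) and Slc7a7 (cationic amino acids). They were picked as named genes with earlier results of these data known, and each was read by position. A row of the count files was given to a gene of the GRCm38 mouse assembly (GENCODE M21 annotation) by its intervals. The gene had to hold at least 0.9 of the exon bases under the row's intervals, and at least 25 such bases. Row names were not used, since by GRCm38 most members lie in rows that carry other genes' names. That the reads were placed on GRCm38 is not stated in the sources used here. All 5 passed the low-count filter and are among the 5246 genes tested. Both groups were kidney total RNA of C57BL/6 mice, the common inbred laboratory strain, at postnatal day 21. The first held 3 libraries labelled healthy, whose titles call them control, and the second 3 labelled acute renal failure (ARF), a rapid loss of kidney function, whose titles call them treat. The labels name no agent, operation or allele behind the renal failure and no sex, while the names of the deposited files set wild type against mutant. Nor do they state that each library is a different mouse, so the tests reflect only how far these libraries differ, a spread that may be technical.

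The proximal tubule takes back most of the phosphate, sulphate, sugar and amino acids that the glomerulus filters, and it secretes drugs, toxins and waste anions from blood into urine. Each of these tasks belongs to carriers placed either in the brush border, facing the filtrate, or in the basolateral membrane, facing blood. Slc34a1 encodes the main sodium-phosphate cotransporter of the brush border, which parathyroid hormone and the hormone FGF23 remove from the membrane. Slc13a1 encodes the sodium-sulphate cotransporter of the brush border. Slc22a8 encodes organic anion transporter OAT3 of the basolateral membrane, and Slc22a13 a relative, OAT10, that carries urate and nicotinate. Slc7a7 encodes the light chain y+LAT1, which moves cationic amino acids out towards blood and needs the heavy chain encoded by Slc3a2 to reach the membrane. The transcription factor HNF4 is known to maintain genes of this cell type.

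How much of each gene was counted differed widely, so levels of different members cannot be compared. Each comparison between libraries is over the same bases. Slc13a1 (chromosome 6, 24088283 to 24168092) was counted over 2480 of its 2495 exon bases, in the row that carries its own name and spans 7728 bases. Slc34a1 (chromosome 13, 55398187 to 55415592) was counted in the row named Gm47816, which spans 368 bases, all inside the gene, and holds 160 coding bases of exons 4 and 5. Slc22a8 (chromosome 19, 8591254 to 8611835) was counted in the row named Slc22a6, which spans 3983 bases, all inside the gene, and holds 259 coding bases of exons 4 and 5. Reads over the other bases of these rows, which lie outside the exons of the basic annotation, are in the counts too, and the share of such reads was not measured. Slc7a7 (chromosome 14, 54369442 to 54417780) was counted in 2 rows, through 59 coding bases in the row named Trdj2 and 57 bases of a non-coding first exon in the row named Traj47. The longest stretch of Slc34a1 and the coding stretch of Slc7a7, from the GENCODE M21 transcripts, are given since they are exon bases on which the values of these genes rest in part.
Slc34a1, chr13:55401127-55401270, exon 5: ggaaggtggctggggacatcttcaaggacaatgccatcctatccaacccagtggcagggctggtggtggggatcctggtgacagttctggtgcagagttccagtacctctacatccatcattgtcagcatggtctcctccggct
Slc7a7, chr14:54374236-54374294: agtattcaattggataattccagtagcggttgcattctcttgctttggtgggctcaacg

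Slc22a13 (chromosome 9, 119192974 to 119209098) is the uncertain member. Its row, named Xylb, spans 4106 bases in 22 intervals, of which 849 lie inside the gene, and covers 113 of its 2001 exon bases, and 72 of them form a stretch of exon 9. The full annotation with every gene type, pseudogenes included, was used beside the basic one. By it the same row covers 567 exon bases of the neighbouring copy Slc22a13b-ps and 75 of Slc22a14. Of the exon bases that the row overlaps, Slc22a13 then holds 15.0% and the copy 75.1%. Most of the row lies outside any of these exons. The counted stretch of exon 9 and its match in the copy have 70 of 72 bases in common. They are printed with the bases that differ in capitals.
Slc22a13: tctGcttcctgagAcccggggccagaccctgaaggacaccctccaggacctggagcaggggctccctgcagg
Slc22a13b-ps: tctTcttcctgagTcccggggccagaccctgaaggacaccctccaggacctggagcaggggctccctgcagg
The row's reads therefore cannot be divided among Slc22a13, its copy, Slc22a14 and the bases outside their exons. The values given under Slc22a13 are those of the row.

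Total counts ranged from 2873370 to 5710010 in the healthy-labelled and from 5455886 to 6191479 in the ARF-labelled libraries. Genes known to rise in tubular injury and with handling stress were lower in the group labelled as renal failure. All 5 genes tested from a list of tubular injury markers were called lower in the ARF-labelled group, with summed levels of 10163 to 16352 against 1970.0 to 2726 CPM. CPM is the count scaled to the library's total count, and pairs of values joined by "against" give the healthy-labelled libraries first. All 5 immediate early genes were lower too, at 2475 to 3266 against 337 to 689.7 CPM, beside 24.9% of all genes tested that were called lower. The groups are therefore called by their labels. The file headers name each library by a sequencing run and not by a group, so the labels could not be checked against them. Whether the labels of the groups are exchanged was not tested, and if they were, the direction of every difference given here would turn. Markers of the proximal tubule were present in every library: the 6 general markers read had summed levels of 6209 to 9827 against 3079 to 4666 CPM, with 3 of the 6, Slc34a1 among them, called lower and 1 higher. In bulk RNA, fewer cells of a type and less RNA per cell cannot be told apart.

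Of the 5 members, 4 were lower and 1 was higher in the ARF-labelled libraries. The call is an adjusted p under 0.05 in the quasi-likelihood test of edgeR, adjusted by the Benjamini-Hochberg method over all 5246 genes. Of all genes tested, 50.0% were called, 24.9% lower and 25.1% higher, so a call alone does not set a gene apart here. The 2 groups of libraries did not overlap for any of the 5 members, and they did not overlap for 62.4% of all genes tested. The place of the members among all fold changes is a description, since they were chosen with earlier results known. Of the genes tested, 2.31% had a lower log2 fold change than Slc34a1, 3.22% a lower one than Slc22a8, 4.56% a lower one than Slc13a1 and 7.07% a lower one than Slc7a7, while for Slc22a13 it was 96.8%.

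**Figure D1:**
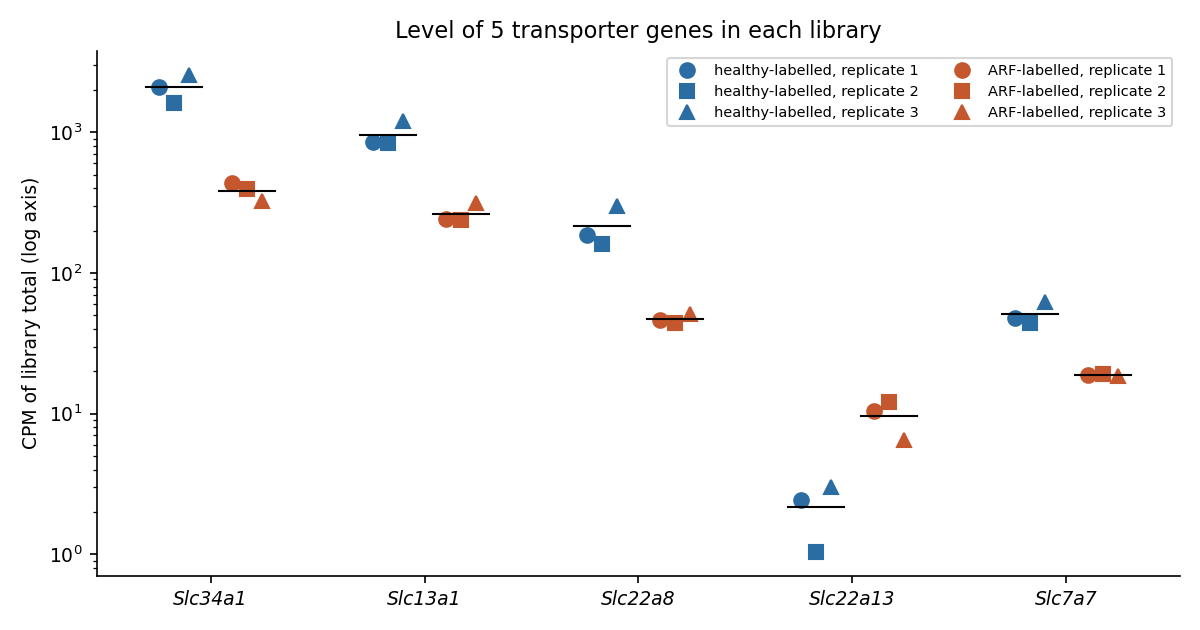
Level of each member in each of the 6 libraries, in CPM of the library's total count on a log axis; colour gives the group, the symbol the replicate and the black line the mean of 3 libraries. The healthy-labelled libraries lie above the ARF-labelled ones for Slc34a1, Slc13a1, Slc22a8 and Slc7a7 and below them for Slc22a13, with no overlap; levels of different genes are not comparable.

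Slc34a1, the phosphate carrier, had the largest fold change of the members that were lower, with an interval that overlaps those of Slc22a8 and Slc13a1. It stood at 2089.8, 1622 and 2562 CPM in healthy-labelled replicates 1 to 3 and at 435, 392 and 326 CPM in ARF-labelled replicates 1 to 3. The lowest healthy-labelled library thus lay well above the highest ARF-labelled one. The means were 2091 ± 469.9 and 384 ± 55.2 CPM (SD, n = 3 libraries each). The fitted difference was 6.14-fold, a log2 fold change of -2.62 (95% interval -3.08 to -2.16, edgeR adjusted p = 3.31e-05). It rested on 25896 against 6557 counts. Fitted differences, here and below, use TMM, a further scaling between libraries that CPM leaves out. They are therefore not the ratios of the CPM means.

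Most other genes of phosphate transport that could be read were lower by smaller amounts. Of 17 listed genes, 5 were read and tested, and 4 of them, Slc34a1 included, were lower, beside 24.9% of all genes tested. The list median log2 fold change was -1.10 beside 0.01 over all genes tested. Slc20a2, a sodium-phosphate carrier of another family, stood at 141 ± 7.66 against 68.5 ± 5.45 CPM (log2 fold change -1.21, SE 0.11). Fgfr4, one of the receptors through which FGF23 acts, had a log2 fold change of -1.10 (SE 0.20, edgeR adjusted p = 0.00237). Pth1r, the receptor for parathyroid hormone, had one of -0.86 (SE 0.18, edgeR adjusted p = 0.00466). Enpp1, which makes pyrophosphate outside the cell, was not called, at 28.7 ± 3.35 against 28.9 ± 4.90 CPM.

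Slc13a1, the sulphate carrier, stood at 845, 834 and 1196 CPM in healthy-labelled replicates 1 to 3. In ARF-labelled replicates 1 to 3 it stood at 241, 237 and 314 CPM. Replicate 3 was the highest library in both groups, and no ARF-labelled library came near the healthy-labelled ones. The means were 958 ± 206 and 264 ± 43.7 CPM. The fitted difference was 4.10-fold (log2 fold change -2.04, 95% interval -2.46 to -1.61, edgeR adjusted p = 6.76e-05). This is the member read over nearly its whole length. Of the 8 listed sulphate and dicarboxylate carriers, the only other gene tested was Slc26a2, the sulphate carrier known for its role in cartilage. It went the opposite way, from 107 ± 5.94 to 281 ± 15.7 CPM (log2 fold change 1.22, SE 0.10, edgeR adjusted p = 4.65e-05). The third gene read, Slc13a4, had 1 against 0 counts and was not tested.

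Slc22a8, the basolateral organic anion transporter, stood at 187, 161 and 299.7 CPM in healthy-labelled replicates 1 to 3 and at 46.0, 43.8 and 50.7 CPM in ARF-labelled replicates 1 to 3. The healthy-labelled libraries were spread widely, with a coefficient of variation of 34.0%, and the ARF-labelled ones narrowly, with 7.54%. The means were 216 ± 73.5 and 46.8 ± 3.53 CPM. The fitted difference was 5.21-fold (log2 fold change -2.38, 95% interval -2.90 to -1.87, edgeR adjusted p = 7.84e-05).

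Slc22a13, read through a row that also holds its copy and other bases, was the member that was higher in the ARF-labelled libraries. Its row had 14, 3 and 11 counts in healthy-labelled replicates 1 to 3 and 57, 67 and 40 in ARF-labelled replicates 1 to 3. These correspond to 2.45, 1.04 and 3.03 CPM and to 10.4, 12.1 and 6.46 CPM, so every ARF-labelled library was above every healthy-labelled one. The log2 fold change was 1.91, with a wide 95% interval of 0.98 to 2.84 (edgeR adjusted p = 0.00479). With the full annotation and pseudogenes counted as genes of their own, no row met the rule for Slc22a13. The rise thus belongs to a row in which most of the exon bases overlapped are those of Slc22a13b-ps. Such a rise was therefore not measured for Slc22a13 itself.

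The listed organic anion carriers did not all go the same way. Of 27 listed genes 11 were tested, and 6 were lower and 3 higher, the 2 members included, with a median log2 fold change of -0.98. Over all genes tested, 24.9% were called lower and 25.1% higher, and the higher share of this list is near the latter. The 3 higher include the row read under Slc22a13, whose rise was not measured for Slc22a13 itself. Among the genes lower in the ARF-labelled libraries were the uptake carrier Slco1a1 (log2 fold change -1.93, SE 0.38), the efflux pump Abcg2, which exports urate (-1.83, SE 0.22), and the phosphate and urate carrier Slc17a1 (-1.64, SE 0.22). The urate carrier Slc2a9 was higher, at 4.69 ± 1.02 against 22.2 ± 10.9 CPM (log2 fold change 2.05, SE 0.40). Slc22a19, an organic anion transporter from a cluster of similar genes and so uncertain, had 23 against 273 counts (log2 fold change 2.96, SE 0.59). Slc22a7 (0.86, edgeR adjusted p = 0.0863) and the efflux pump Abcc4 (-0.10, edgeR adjusted p = 0.628) were not called. Slc22a7 was called higher, among other settings, without healthy-labelled replicate 1, where its log2 fold change was 1.51 (edgeR adjusted p = 0.00214).

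Slc7a7, the cationic amino acid exchanger, had the smallest fold change of the 4 members that were lower, with an interval that overlaps those of Slc13a1 and Slc22a8. It stood at 48.0, 44.2 and 61.7 CPM in healthy-labelled replicates 1 to 3 and at 18.7, 19.2 and 18.6 CPM in ARF-labelled replicates 1 to 3. The ARF-labelled libraries were almost equal, with a coefficient of variation of 1.72%. They held 102, 106 and 115 counts, for which counting error alone exceeds that spread. The closeness therefore does not measure how well these libraries agree. The means were 51.3 ± 9.20 and 18.8 ± 0.323 CPM. The fitted difference was 3.08-fold (log2 fold change -1.62, 95% interval -1.98 to -1.26, edgeR adjusted p = 8.75e-05). Its 2 rows lie on different exons and were both lower. The coding exon had a log2 fold change of -1.57 (SE 0.15, edgeR adjusted p = 5.04e-05 over 10919 rows tested), and the non-coding first exon, with 15, 6 and 16 counts against 4, 5 and 3, had one of -2.24 (SE 0.46, edgeR adjusted p = 0.00380). Over all rows tested, 46.2% were called, 23.6% higher and 22.6% lower.

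The partner chain of Slc7a7 was lower as well. Slc3a2 stood at 238, 259 and 264 CPM in healthy-labelled replicates 1 to 3 and at 62.0, 64.2 and 80.3 CPM in ARF-labelled replicates 1 to 3 (log2 fold change -2.06, SE 0.12, edgeR adjusted p = 1.13e-05). The log2 fold change of Slc7a8, another light chain that binds the same heavy chain, was -1.18 (SE 0.23). Of 29 listed amino acid carriers 12 were tested. Of these, 6 were lower, Slc7a7 included, 1 was higher and 5 were not called, with a median of -0.62. Beside them, 24.9% of all genes tested were called lower and 25.1% higher. Slc7a13, a carrier of the last segment of the proximal tubule, had a log2 fold change of -1.34 (SE 0.35), which was -0.87 without healthy-labelled replicate 1. The gene that was higher was Slc43a2, a carrier of large neutral amino acids, from 139 ± 32.6 to 361 ± 42.3 CPM (log2 fold change 1.21, SE 0.18, edgeR adjusted p = 0.000688).

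**Figure D2:**
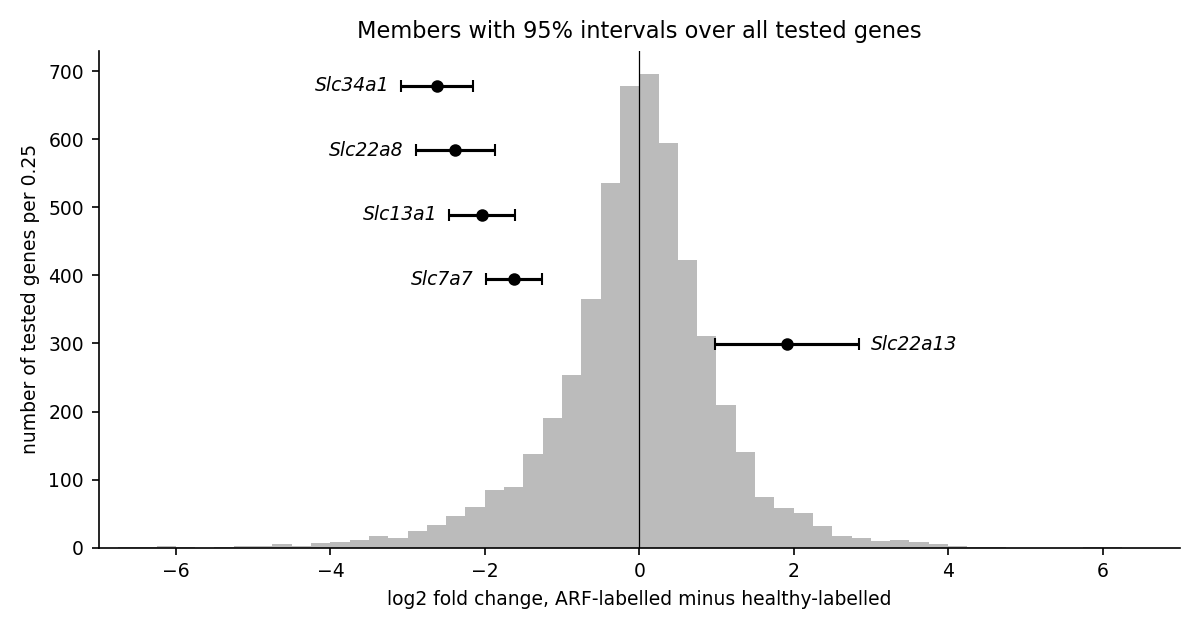
Histogram of the log2 fold change (ARF-labelled minus healthy-labelled) of the tested genes in bins of width 0.25, with the 5 members as points and 95% intervals at arbitrary heights; genes beyond the ends of the axis are not drawn. No member's interval includes 0, and Slc34a1, Slc22a8, Slc13a1 and Slc7a7 lie in the lower tail.

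Ratios between 2 members within a library do not depend on how libraries are scaled, and they show whether the members fell by different amounts. All 10 pairs were compared with a two-sided exact permutation test, which for 3 against 3 libraries cannot go below p = 0.10, and p-values were adjusted over the 10 pairs. The log2 ratio of Slc34a1 to Slc7a7 was 5.34 ± 0.129 against 4.34 ± 0.204, with no overlap (exact permutation p = 0.10, adjusted p = 0.111). That of Slc22a8 to Slc7a7 was 2.03 ± 0.216 against 1.31 ± 0.130 (exact permutation p = 0.10, adjusted p = 0.111). That of Slc34a1 to Slc22a8 was 3.30 ± 0.194 against 3.03 ± 0.302 and overlapped between the groups (exact permutation p = 0.30, adjusted p = 0.300), and its difference of -0.27 was -0.10 without ARF-labelled replicate 3. The ratio of Slc34a1 to Slc13a1 fell by 0.58 on the log2 scale, and by 0.33 without that library, in which Slc34a1 was the lowest and Slc13a1 the highest of the group. No pair passed a threshold of 0.05, which this design cannot reach.

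**Figure D3:**
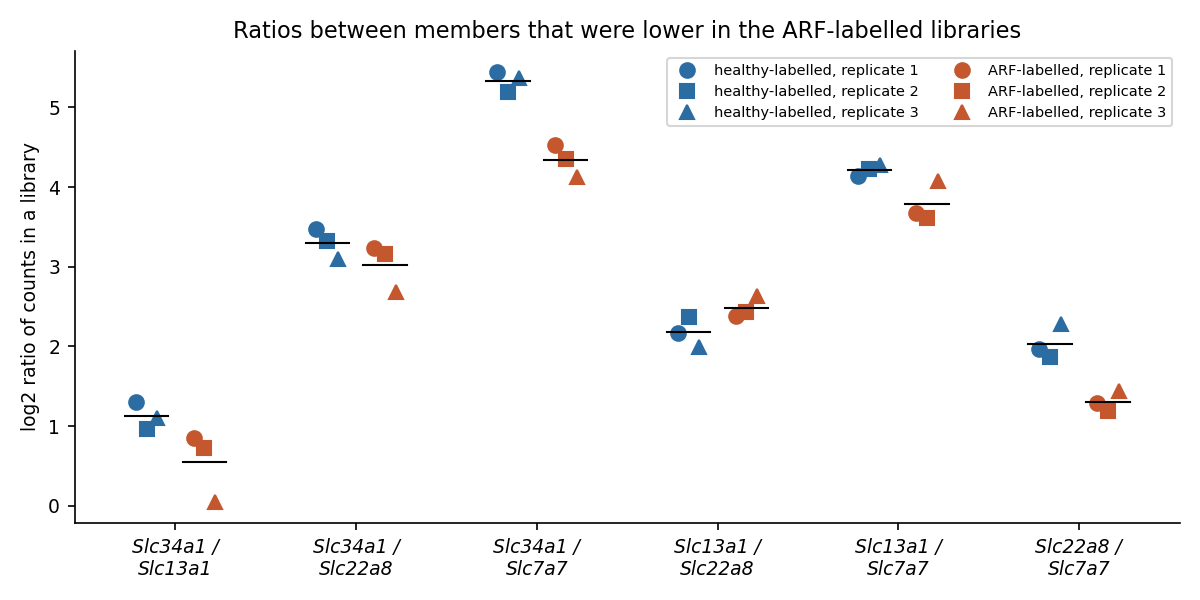
Log2 ratio of the counts of 2 members in each library, with 0.5 added to each count, for the 6 pairs among the 4 members that were lower in the ARF-labelled libraries; colour gives the group, the symbol the replicate and the line the mean. Ratios to Slc7a7 are lower in all 3 ARF-labelled libraries, whereas the ratio of Slc34a1 to Slc22a8 overlaps between the groups.

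The genes with the most similar profiles were found by the root mean square difference of log2 CPM over the 6 libraries, each gene centred on its own mean, among 5019 other protein-coding genes. For Slc13a1 the nearest was Ass1, the arginine-making enzyme of the proximal tubule, at 0.06, followed by Rundc3b at 0.09 and Prrg4 at 0.13. The nearest to Slc7a7 were Sod3, the extracellular superoxide dismutase, at 0.08, Habp2 at 0.11 and Ildr2 at 0.12. Enpp6, a choline phosphodiesterase, was the nearest both to Slc34a1 (0.18) and to Slc22a8 (0.17). Basp1 and Pde6a came next for Slc34a1, at 0.19 each, and Ass1 at 0.18 and Slc13a1 at 0.20 for Slc22a8. The row of Slc22a13 was closest to Padi2 (0.23), Npas1 (0.26) and Klhdc1 (0.28). Between members, the smallest difference was that of Slc13a1 and Slc22a8 (0.20) and the largest that of Slc34a1 and Slc22a13 (2.25). These profiles are dominated by the difference between the groups.

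The wider set of carriers and proximal tubule genes followed the 4 lower members in most but not all lists. Of 132 listed genes 54 could be read and 50 were tested; 27 were lower and 7 higher, with a median log2 fold change of -0.94. Without the 5 members, 23 of 45 were lower, 6 higher and 16 not called, with a median of -0.90, beside 24.9% lower, 25.1% higher and a median of 0.01 over all genes tested. Scaling by total count in place of TMM moves the median of all genes to 0.19. With it, 27 were lower and 9 higher of the 50 tested, members included, in place of 27 and 7.

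**Figure D4:**
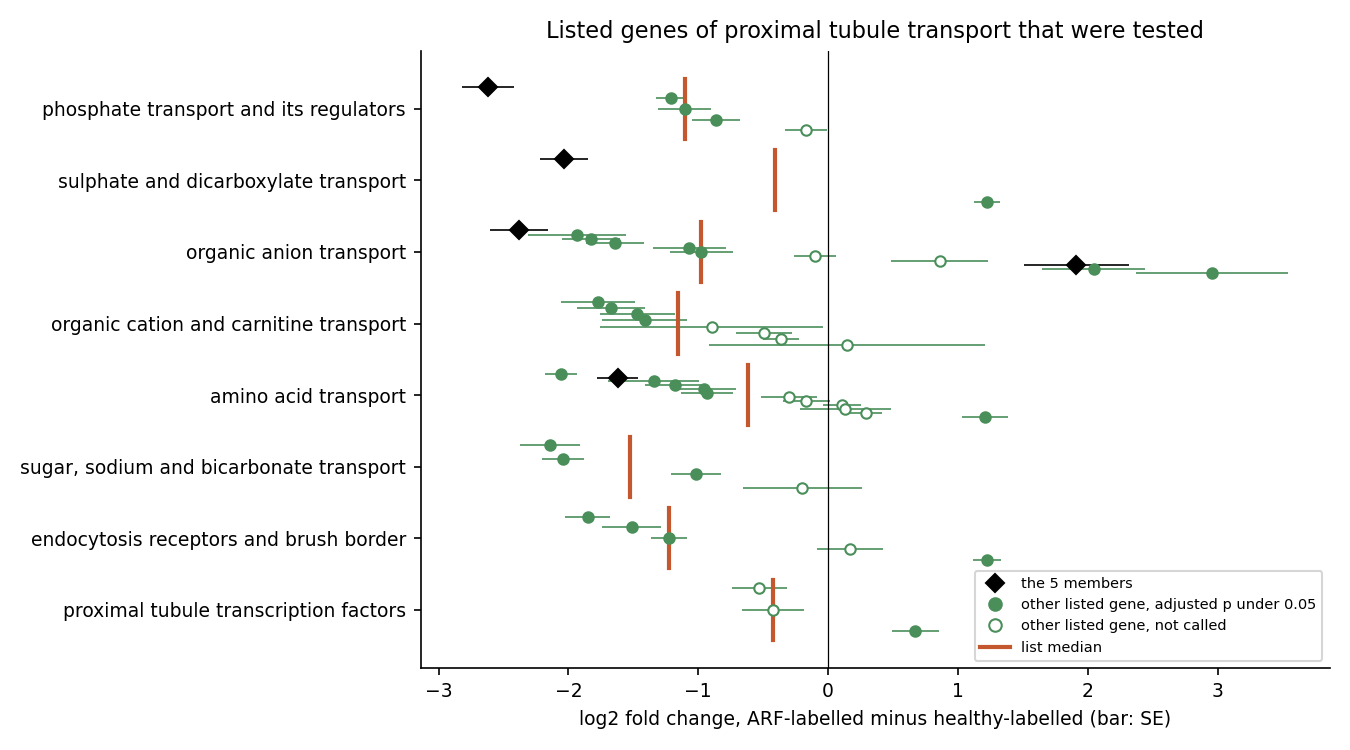
Log2 fold change (ARF-labelled minus healthy-labelled) with its SE for each listed gene tested, by list; diamonds are the 5 members, filled symbols have an adjusted p under 0.05 and the orange line is the list's median. Transport lists lie mostly left of 0, with medians from -1.53 to -0.41.

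Organic cation carriers were lower or not called. Of 8 tested, 4 were lower, 0 higher and 4 not called, with a median log2 fold change of -1.15. Over all genes tested 50.0% were called, as in this list, with 24.9% lower and 25.1% higher. Slc22a2, the uptake carrier OCT2 of the basolateral membrane, had one of -1.77 (SE 0.29), and Slc47a1, the exporter that passes cations on into urine, one of -1.67 (SE 0.26, edgeR adjusted p = 0.00107). The carnitine and cation carriers Slc22a4 (-1.47, SE 0.29) and Slc22a21 (-1.41, SE 0.33) were lower too. Of 4 genes of sugar, sodium and bicarbonate transport, 3 were lower. The log2 fold change was -2.14 (SE 0.23) for Car4, the carbonic anhydrase of the brush border; the sodium-proton exchanger Slc9a3 had one of -2.04 (SE 0.16, edgeR adjusted p = 3.66e-05) and the glucose carrier Slc5a1 one of -1.02 (SE 0.19). The bicarbonate carrier Slc4a4 was not called (-0.20, edgeR adjusted p = 0.748).

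Several genes of the same cell type did not follow. Lrp2, which encodes the endocytosis receptor megalin of the proximal tubule, stood at 1529 ± 360 against 1946 ± 635 CPM. Its log2 fold change of 0.17 was not called (edgeR adjusted p = 0.612). The brush border protease gene Mme was higher (log2 fold change 1.22, SE 0.11), while the brush border structure genes Ezr (-1.85, SE 0.18), Cdhr2 (-1.51, SE 0.23) and Vil1 (-1.23, SE 0.14) were lower. Of the 3 transcription factors described here, Cebpa was higher (0.67, SE 0.18, edgeR adjusted p = 0.0139). Hnf4a (-0.53, edgeR adjusted p = 0.0696) and Nr1h4 (-0.43, edgeR adjusted p = 0.174) were not called. Hnf4a was called lower under some settings, as without healthy-labelled replicate 2 (-0.70, edgeR adjusted p = 0.0256). Without that library Nr1h4 was called lower too (-0.64, edgeR adjusted p = 0.0411).

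Markers of several other cell types differed between the groups, while those of others were mixed or not called. Of all genes tested, 24.9% were called lower and 25.1% higher. The ARF-labelled group was higher for all 7 intercalated cell markers tested, with summed levels of 1202 to 1492 against 5048 to 6137 CPM. All 4 principal cell markers were higher, at 3350.5 to 4069 against 9488 to 11305 CPM. Both neutrophil markers tested were lower, at 46.6 to 155 against 3.08 to 6.95 CPM, and so were all 3 macrophage and dendritic cell markers, at 32.2 to 57.1 against 14.5 to 18.5 CPM. Of the 4 erythroid markers read, 2 were tested and lower, at 163 to 789 against 28.8 to 79.1 CPM for the list, and Hbb-bt was at 0 counts in every library. Markers of the distal convoluted and connecting tubule summed to 827 to 1956 against 3452 to 6105 CPM, with 1 of 3 called higher and 2 lower. The sum rose through Calb1, with means of 1013 against 4513 CPM, while Trpm6 and Trpv5 were lower. Of the 3 loop of Henle markers, 1 was higher, 1 lower and 1 not called. Of the 4 endothelial markers 3 were lower, and of the 6 fibroblast and smooth muscle markers 4 were not called, with sums of 212 to 1610.0 against 269 to 464 CPM. The part of these shifts, and of those of injury and handling genes, in the members' differences was not tested.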

How the data were processed

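Kidney RNA was extracted with Trizol and made into TruSeq RNA libraries, per the labels' protocols. The authors deposited raw counts per gene row for each library; per the file headers, pairs were counted with featureCounts 2.0.1 over exons by gene name, strand ignored, chimeric pairs and pairs with 1 aligned end left out. Bowtie 0.12.2 and the mm9 build stand in the submitters' processing notes; the aligner and annotation build behind these counts are not given in the sources used here. Groups follow the labels' diagnosis.

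Row intervals were intersected with GRCm38 exons (GENCODE M21 basic, protein-coding and long non-coding genes, no read-through transcripts) with bedtools 2.31.1 and pandas 2.3.3. This gave 12401 of 53546 rows to genes, with 63.0% of the counts. Because counting ignored strand, reads of overlapping antisense genes are included. Counts were tested with edgeR 4.0.16 in R 4.3.3 (glmQLFit, glmQLFTest, TMM, filterByExpr, library totals over all rows, group as the only term, two-sided), which was tested on simulated data. SE is the log2 fold change divided by the square root of F. DESeq2 1.42.0 was an alternative. CPM is relative to the library total, and the depth of each library sets its counting error. Sequences were aligned with biopython 1.88.

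Genes named were the members, up to 4 called genes per list and direction by size of change, uncalled genes where a list had at most 3, and 3 profile neighbours per member. Some listed genes and promoter sequences are not reported here. The members and lists were chosen with earlier results of these data known. The deposited table of the whole series was not used here.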

Additional observations from a re-analysis of the deposited data

How the results depend on the processing

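The log2 fold changes of the members and of their rows kept their direction and their side of the threshold in all 133 estimates. The alternatives were other scaling, DESeq2, no low-count filter, 1 library left out, other row rules and a replicate block. Only settings in which a member or its row could be read are counted. The 133 come from 14 settings on the same 6 libraries and are not independent. A member counted in a single row enters both as a gene and as that row. Slc22a13 could not be read with a row share of 1.0, and Slc7a7 not with at least 100 exon bases. Nor could Slc22a13 be read with every gene type of the full annotation included, a setting chosen after seeing the data. In that setting the log2 fold change of Slc7a7 was -1.22 (edgeR adjusted p = 0.000487) in place of -1.62, outside the 95% interval given above. Those of Slc34a1 (-2.62), Slc13a1 (-2.04) and Slc22a8 (-2.39) changed little there. The replicate numbers did not pair the libraries: same-numbered libraries had correlations of -0.07, -0.22 and -0.29 in their deviations from the group means, and no library correlated best with its own number. With the replicate block, the log2 fold changes were -2.60 for Slc34a1, -2.03 for Slc13a1, -2.33 for Slc22a8, 1.90 for Slc22a13 and -1.61 for Slc7a7, and 1153 genes were lower and 1135 higher in place of 1305 and 1319. Scaling by total count made 63.3% of all calls higher in place of 50.3% (1749 higher and 1013 lower). Genes that were not called changed sign in some settings. Enpp1 was at 0.0084 and Abcc4 at 0.075 with total count scaling. Abcc4 was at 0.036 and Lrp2 at -0.099 without ARF-labelled replicate 1, Lrp2 was at -0.035 without healthy-labelled replicate 2, and Slc4a4 at 0.13 without ARF-labelled replicate 2; the cause was not tested. With 1 library left out in turn, Abcc4 ranged from -0.24 to 0.036, Lrp2 from -0.099 to 0.36 and Slc4a4 from -0.60 to 0.13. Low counts limit Slc22a13, whose row had 28 counts in the healthy-labelled libraries.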
